A study of Homo sapiens with 16 samples.

Results

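In MDA-MB-231 cells, a human triple-negative breast cancer line, 10 genes were followed. They were the IL-6 family cytokine genes IL6, IL11 and LIF, the receptor genes IL6ST, OSMR and LIFR of the family, and the inhibitor gene SOCS3. The acute-phase genes SAA1 and SAA2 and the cytokine gene IL24 were followed with them. The 10 genes were taken from the 19468 genes of the expression table by symbol, and all 10 were found. RNA-seq was available for 16 libraries, 4 in each of 4 groups. Ancestral cells were cultured on either soft or stiff ECM, soft-selected cells on the soft and stiff-selected cells on the stiff ECM. The ECM was a polyacrylamide gel carrying type I collagen, with a Young's modulus of 1 kPa (soft) or 308 kPa (stiff), and the selected cells had been passaged on gels of 1 stiffness for 75 days. All groups were labelled wildtype and grew in DMEM with donor bovine serum and antibiotics. Each comparison asks how the level of a gene differed between groups. The pairs were selected and ancestral cells on the same gel, ancestral cells on soft and stiff ECM, and soft-selected and stiff-selected cells. Selected cells were measured only on the gel of their selection, so in the last pair gel and population cannot be told apart. The genes were gathered by function, but with earlier results for IL11, IL24 and SAA1 in view, so IL11, IL24, SAA1 and its paralog SAA2 are described with intervals and without p-values.

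Levels are FPKM, the fragments mapped to a gene per kilobase of its length, scaled to the fragments of the library. No further scaling was made between libraries, and other scalings moved the split of all calls, as given at the end. The libraries held between 34284789 and 55473000 reads, with 43475899 or more in each ancestral library and 44279011 or fewer in each selected library. The labels give the libraries of ancestral cells another prefix than those of selected cells, and whatever the prefix stands for cannot be told apart from selection. The labels do not say whether the 4 libraries of a group came from separate cultures, and p-values therefore measure only the spread between these libraries, which may be technical. Vimentin, CD44, EGFR and caveolin-1, markers of this mesenchymal line, summed to at least 3287 FPKM in every library. Of 5 genes thought to be low in it, ESR1, PGR and CDH1 stayed under 1 FPKM in every library while ERBB2 and EPCAM did not. Because each library is a bulk sample, fewer cells that express a gene and less RNA per cell cannot be told apart.

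Cytokines of the IL-6 family signal through receptors that contain gp130, the product of IL6ST, which pairs with a ligand-specific chain such as the OSM receptor or the LIF receptor. The paired chains activate JAK kinases and the transcription factor STAT3, and STAT3 induces SOCS3, which in turn blocks the receptor complex. In liver the pathway drives the acute-phase response, in which serum amyloid A proteins from SAA1 and SAA2 are secreted. IL24 belongs to the IL-10 family and signals through other receptor chains, IL20RB paired with IL20RA or IL22RA1.

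The 250 bases before the RefSeq start sites (GRCh38.p14) of IL6, IL11 and IL24 are shown because these were the cytokine genes whose libraries separated between groups, with IL6 and IL11 in opposite directions. Capitals mark matches on either strand to 4 short motifs of factors known to act on cytokine genes: GGANTTTCC for NF-kB, TGANTCA for AP-1, TTGCNNAA for C/EBP and TTCNNNGAA for STAT.
IL6 (chr7:22726950-22727199, plus strand): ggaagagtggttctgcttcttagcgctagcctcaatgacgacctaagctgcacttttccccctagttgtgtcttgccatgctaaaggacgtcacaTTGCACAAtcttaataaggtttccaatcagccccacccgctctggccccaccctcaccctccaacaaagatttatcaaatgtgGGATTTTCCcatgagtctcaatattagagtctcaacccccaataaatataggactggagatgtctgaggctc
IL11 (chr19:55370464-55370713, minus strand): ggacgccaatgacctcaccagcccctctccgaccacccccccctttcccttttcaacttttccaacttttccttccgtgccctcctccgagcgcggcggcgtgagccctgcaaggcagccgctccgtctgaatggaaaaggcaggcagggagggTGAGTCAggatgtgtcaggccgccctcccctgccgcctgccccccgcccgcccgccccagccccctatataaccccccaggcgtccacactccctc
IL24 (chr1:206897193-206897442, plus strand): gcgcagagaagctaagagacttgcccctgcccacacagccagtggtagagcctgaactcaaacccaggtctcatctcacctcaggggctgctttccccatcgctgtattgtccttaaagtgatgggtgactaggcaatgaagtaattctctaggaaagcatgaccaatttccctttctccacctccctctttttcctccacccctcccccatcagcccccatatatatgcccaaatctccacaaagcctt

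The IL6 window held a C/EBP match that begins 155 bases before the start, and an NF-kB match on the gene's own strand that begins 72 bases before it, and the 2 do not overlap. The IL11 window held 1 AP-1 match, which begins 96 bases before the start, and none of the other motifs. The IL24 window matched none of the 4 motifs. Across 35116 promoter windows of the same length, 1.45% held the NF-kB letters, 6.57% the AP-1 letters, 9.05% the C/EBP letters and 6.57% the STAT letters. Windows were found for 7 of the 10 genes, and among them the STAT letters occurred only before LIFR, at 2 of its start sites. LIF, SAA1 and SAA2 had no window in the table.

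IL11, a gp130 cytokine, was low in cells on soft ECM and high in cells on stiff ECM, and was highest in stiff-selected cells. IL11 was at 3.81, 2.82, 3.57 and 2.60 FPKM in the 4 ancestral libraries on soft ECM and at 3.03, 6.14, 4.67 and 4.39 FPKM in soft-selected cells. On stiff ECM, the IL11 values were 4.77, 9.43, 8.19 and 7.77 FPKM in ancestral cells and 17.5, 13.7, 18.6 and 10.7 FPKM in stiff-selected cells. Every stiff-selected library lay above every library of the other 3 groups, and every ancestral library on stiff ECM lay above every ancestral library on soft ECM, whereas soft-selected cells overlapped both ancestral groups. The mean in stiff-selected cells was 15.1 ± 3.62 FPKM (SD, n = 4), which was 2.01 times that of ancestral cells on stiff ECM (7.54 ± 1.98). On the log2(FPKM + 1) scale used for all fold changes here, this was a difference of 0.92 with a 95% confidence interval of 0.51 to 1.33. Soft-selected cells (4.56 ± 1.27 FPKM) were lower than stiff-selected cells by a log2 difference of -1.54 (95% interval -1.94 to -1.13). Ancestral cells on soft ECM (3.20 ± 0.578 FPKM) were lower than those on stiff ECM by -1.001 (95% interval -1.41 to -0.59). Ordered by log2 fold change from the lowest among the 12604 genes tested, IL11 stood at position 2 in ancestral cells on soft against stiff ECM and at position 3 in soft-selected against stiff-selected cells. The soft-selected and ancestral groups on soft ECM differed by 0.38, with an interval of -0.02 to 0.79.

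IL6, the founding member of the family, moved the other way in stiff-selected cells. On soft ECM, IL6 was at 20.3, 21.0, 21.2 and 16.9 FPKM in ancestral cells and at 20.2, 22.7, 26.7 and 15.4 FPKM in soft-selected cells. The stiff ECM libraries gave 22.0, 18.2, 18.0 and 15.9 FPKM in ancestral cells and 10.1, 12.4, 11.3 and 14.9 FPKM in stiff-selected cells. All 4 stiff-selected libraries lay below all libraries of the other groups, and those 3 groups overlapped one another. IL6 was down-regulated in stiff-selected cells compared with ancestral cells on stiff ECM, at 12.1 ± 2.06 against 18.5 ± 2.56 FPKM (SD, n = 4; log2 fold change -0.57 with SE 0.14, adjusted p = 0.00305 by limma). It was higher in soft-selected cells (21.2 ± 4.71 FPKM) than in stiff-selected cells by a log2 fold change of 0.75 (SE 0.14, adjusted p = 0.00212 by limma). Neither soft-selected against ancestral cells on soft ECM (0.07, 95% interval -0.22 to 0.36) nor ancestral cells on soft against stiff ECM (0.10, 95% interval -0.19 to 0.39) passed the threshold of an adjusted p under 0.01. The first of the 2 calls was lost without ancestral stiff replicate 1 (adjusted p = 0.0148), stiff-selected replicate 1 (adjusted p = 0.0126) or stiff-selected replicate 3 (adjusted p = 0.0113) by limma. The second was lost without stiff-selected replicate 1 (limma adjusted p = 0.0106) and when only the 2 groups compared were fitted (limma adjusted p = 0.0172).

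LIF, which keeps mouse stem cells undifferentiated in culture and signals through LIFR and gp130, passed the threshold in no comparison (0 of 5 by limma). Its values ran from 23.3 to 25.5 FPKM in ancestral cells on soft ECM, from 18.4 to 34.2 FPKM in soft-selected cells, from 22.0 to 37.4 FPKM in ancestral cells on stiff ECM and from 23.0 to 33.6 FPKM in stiff-selected cells. All 4 ranges overlapped. The log2 fold change was 0.16 (95% interval -0.20 to 0.51) for soft-selected against ancestral cells and -0.09 (95% interval -0.44 to 0.26) for stiff-selected against ancestral cells.

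The summed FPKM of IL6, LIF and IL11 was 47.4 ± 3.08 in ancestral cells on soft ECM, 53.7 ± 12.3 in soft-selected cells, 54.7 ± 5.01 in ancestral cells on stiff ECM and 53.9 ± 6.76 in stiff-selected cells. These ranges overlapped, while the makeup of the sum differed. IL11 gave 27.8% ± 4.43 of the sum in stiff-selected cells, against 13.7% ± 3.26 in ancestral cells on stiff ECM, 8.66% ± 2.43 in soft-selected cells and 6.73% ± 0.921 in the ancestral group on soft ECM. The ratio of IL6 to IL11 lay between 0.573 and 1.39 in stiff-selected libraries and between 1.93 and 4.61 in ancestral libraries on stiff ECM, while it was at least 3.51 in every library on soft ECM. These shares and ratios rest on the same values as the comparisons above and are given as a description.

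**Figure D1:**
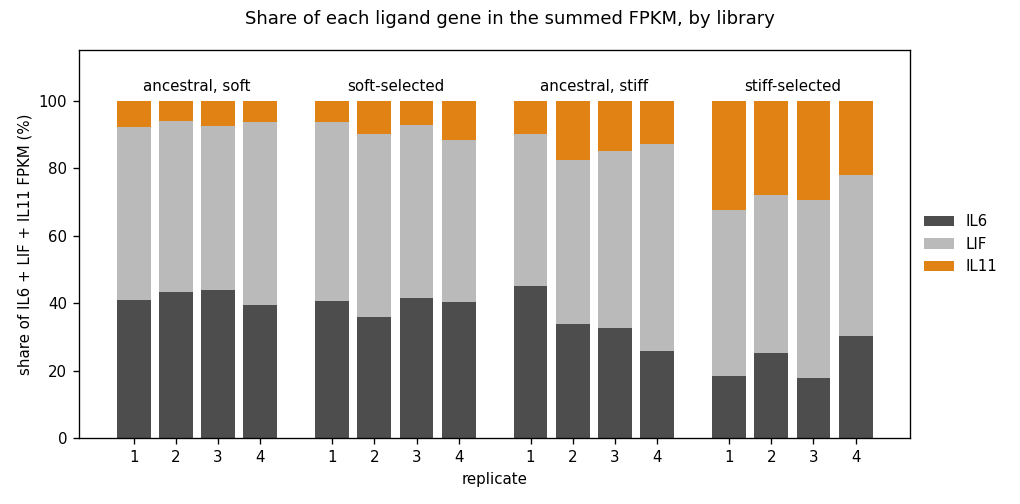
Stacked bars show, for each of the 16 libraries (x axis, replicate number within a group), the share in percent of the summed FPKM of IL6, LIF and IL11 held by each gene (y axis). The IL11 share is largest in the 4 stiff-selected libraries, with a mean of 27.8%.

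IL24, a cytokine first known for its induction in differentiating melanoma cells, was higher in selected than in ancestral cells on the same gel. Its level was also higher in stiff-selected than in soft-selected cells, and higher in ancestral cells on stiff than on soft ECM. IL24 was at 2.41, 2.02, 3.39 and 3.26 FPKM in ancestral cells on soft ECM and at 7.25, 9.01, 8.18 and 21.9 FPKM in soft-selected cells. For stiff ECM the values were 5.03, 8.66, 6.26 and 7.24 FPKM in ancestral cells and 38.1, 30.6, 51.1 and 22.7 FPKM in stiff-selected cells. The 4 libraries of ancestral cells on soft ECM lay below all others and the 4 stiff-selected libraries above all others, while soft-selected cells overlapped ancestral cells on stiff ECM. The mean of stiff-selected cells (35.6 ± 12.1 FPKM, SD, n = 4) was 5.24 times that of ancestral cells on stiff ECM (6.80 ± 1.54), and that of soft-selected cells (11.6 ± 6.90) was 4.18 times that of ancestral cells on soft ECM (2.77 ± 0.663). In log2 terms the differences were 2.19 (95% interval 1.63 to 2.76) and 1.62 (95% interval 1.05 to 2.19). Soft-selected cells were lower than stiff-selected cells by -1.62 (95% interval -2.18 to -1.05), and ancestral cells were lower on soft than on stiff ECM by -1.04 (95% interval -1.61 to -0.48). Among the 12604 genes, IL24 had the lowest log2 fold change of ancestral cells on soft against stiff ECM. It had the second lowest of soft-selected against stiff-selected cells and the second highest of stiff-selected against ancestral cells. These positions, like those of IL11 and SAA1, are a description, since the genes were chosen with results in view. In ancestral cells on soft against stiff ECM IL24 was not called, while 6 of the 11 other settings tried called it. Soft-selected replicate 4 stood apart at 21.9 FPKM, against at most 9.01 in the other 3 soft-selected libraries. Without it, the log2 difference was 1.29 (SE 0.21) from ancestral cells on soft ECM and -1.95 (SE 0.21) from stiff-selected cells.

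**Figure D2:**
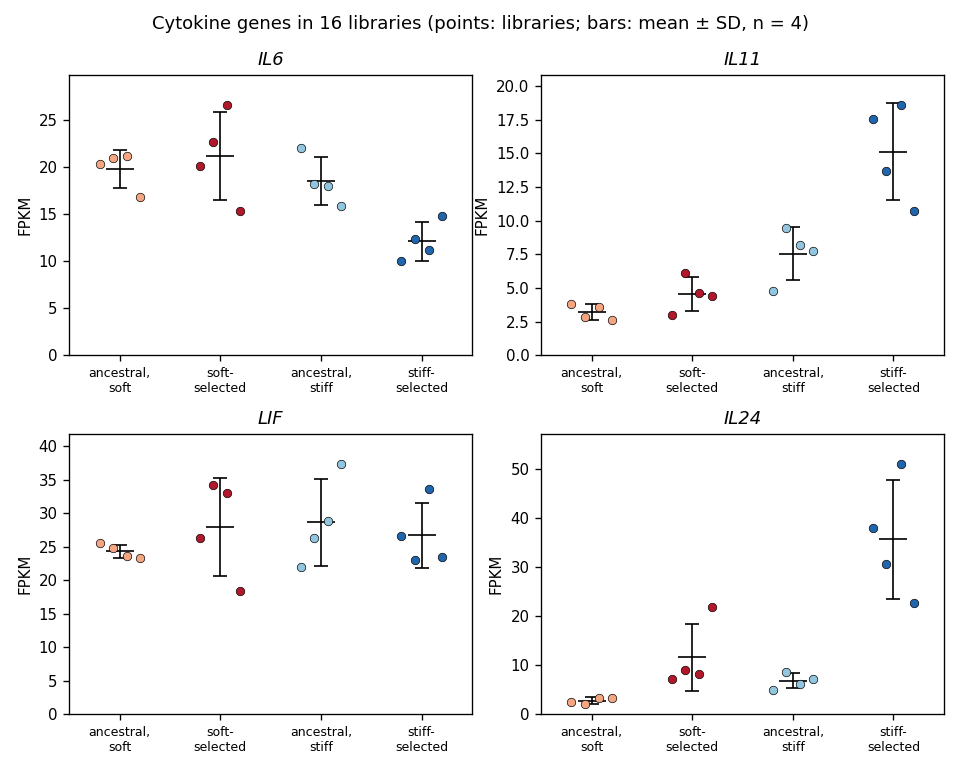
Each panel plots the FPKM (y axis, from 0) of IL6, IL11, LIF or IL24 in the 4 groups (x axis), with a point per library in order of replicate number and a bar for the mean ± SD (n = 4). The stiff-selected points lie below all others for IL6 and above all others for IL11 and IL24, and the 4 groups overlap for LIF.

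IL6ST, which encodes the shared chain gp130, was the most abundant of the 10 genes and was lower in both selected populations. On soft ECM its values were 148.0, 164, 161 and 168 FPKM in ancestral cells and 119.8, 119, 118 and 128 FPKM in soft-selected cells. On stiff ECM they were 169.8, 166, 157 and 167 FPKM in ancestral cells and 112, 126, 122 and 126 FPKM in stiff-selected cells. The 8 selected libraries all lay below the 8 ancestral libraries. IL6ST was down-regulated in soft-selected cells by -0.40 (SE 0.05, adjusted p = 1.1e-05 by limma) and in stiff-selected cells by -0.44 (SE 0.05, adjusted p = 7.2e-06 by limma) on the log2 scale, and both calls held in each fit that left out 1 library. The group means were 160.2 ± 8.68 and 121 ± 4.84 FPKM on soft ECM and 165 ± 5.62 and 121 ± 6.56 FPKM on stiff ECM (SD, n = 4). Between soft-selected and stiff-selected cells the log2 fold change was 0.00, with a 95% interval of -0.11 to 0.11.

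OSMR, which encodes the oncostatin M receptor chain that pairs with gp130, ran from 111 to 124 FPKM in ancestral cells on soft ECM and from 119.7 to 144 FPKM in soft-selected cells. On stiff ECM it ran from 98.0 to 121 FPKM in ancestral cells and from 108 to 131 FPKM in stiff-selected cells. The groups overlapped, and no comparison of OSMR passed the threshold, with log2 fold changes of 0.12 (95% interval -0.04 to 0.27) for soft-selected and 0.16 (95% interval 0.01 to 0.32) for stiff-selected against ancestral cells. The ratio of IL6ST to OSMR was 1.36 ± 0.0337 in ancestral cells on soft ECM and 1.52 ± 0.0876 in those on stiff ECM, against 0.951 ± 0.0870 in soft-selected and 1.00 ± 0.0504 in stiff-selected cells.

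LIFR, the other partner chain of gp130, was at a lower level than IL6ST and OSMR in every library and was down-regulated in soft-selected cells. LIFR was at 31.8, 35.4, 31.9 and 33.8 FPKM in ancestral cells on soft ECM and at 23.4, 33.0, 24.0 and 27.1 FPKM in soft-selected cells. Its values on stiff ECM were 31.9, 28.3, 29.6 and 27.7 FPKM in ancestral cells and 21.0, 23.4, 25.8 and 24.6 FPKM in stiff-selected cells. Soft-selected replicate 2, at 33.0 FPKM, lay within the ancestral range on soft ECM, whereas the 2 groups on stiff ECM did not overlap. The log2 fold change was -0.31 (SE 0.09, adjusted p = 0.00864 by limma) for soft-selected cells and -0.30 (SE 0.09, adjusted p = 0.0120 by limma, not past the threshold) for stiff-selected cells. The call in soft-selected cells was lost in 7 of the 8 fits that left out 1 library, with limma adjusted p-values up to 0.0343, and held only without soft-selected replicate 2. It was also lost in 4 of the 11 other settings tried, with limma adjusted p = 0.0236 as the highest. In stiff-selected cells it was gained in 5 of the 11 other settings tried, with limma adjusted p = 0.0025 as the lowest.

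SOCS3, the feedback inhibitor induced by STAT3, differed with the ECM in ancestral cells. SOCS3 was at 34.1, 39.4, 35.9 and 37.9 FPKM in ancestral cells on soft ECM and at 36.9, 31.3, 33.7 and 24.6 FPKM in soft-selected cells. The values on stiff ECM were 30.6, 24.2, 25.3 and 30.0 FPKM in ancestral cells and 27.0, 26.4, 26.7 and 28.9 FPKM in stiff-selected cells. All 4 ancestral libraries on soft ECM lay above those on stiff ECM, at 36.8 ± 2.34 against 27.5 ± 3.22 FPKM (SD, n = 4; log2 fold change 0.41 with SE 0.10, adjusted p = 0.00674 by limma). The call was lost in 6 of the 8 fits without 1 ancestral library, all except those without stiff replicate 1 or 4, with limma adjusted p-values up to 0.0306 while the log2 fold change stayed between 0.35 and 0.46. It was also lost in 3 of the 11 other settings, with no filter (limma adjusted p = 0.0158), quantile normalization (limma adjusted p = 0.0116) and the replicate block (limma adjusted p = 0.0113). For selected against ancestral cells, SOCS3 gave -0.23 (95% interval -0.43 to -0.02, limma adjusted p = 0.0650) on soft ECM and -0.01 (95% interval -0.22 to 0.20) on stiff ECM.

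SAA1, which encodes the main serum amyloid A protein of the acute phase, showed the largest fall of the 10 genes in both selected populations on the log2(FPKM + 1) scale. SAA1 was at 32.0, 34.0, 38.2 and 31.4 FPKM in ancestral cells on soft ECM and at 5.34, 7.41, 10.4 and 2.83 FPKM in soft-selected cells. In ancestral cells on stiff ECM it was at 36.8, 36.9, 41.8 and 32.8 FPKM, and in stiff-selected cells at 7.23, 7.38, 10.0 and 8.06 FPKM. The lowest ancestral library held 31.4 FPKM and the highest selected library 10.4 FPKM. The mean of soft-selected cells (6.48 ± 3.19 FPKM, SD, n = 4) was 0.191 times that of ancestral cells (33.9 ± 3.07), and the mean of stiff-selected cells (8.17 ± 1.27) was 0.220 times that of ancestral cells on stiff ECM (37.1 ± 3.66). The log2 differences were -2.33 (95% interval -2.78 to -1.88) and -2.06 (95% interval -2.51 to -1.61), at positions 8 and 5 from the lowest among the 12604 genes. SAA1 gave -0.39 (95% interval -0.84 to 0.06) in soft-selected against stiff-selected cells. In ancestral cells on soft against stiff ECM it gave -0.12 (95% interval -0.57 to 0.33).

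SAA2, the neighbouring paralog that encodes a second acute-phase serum amyloid A, was lower than SAA1 and fell in parallel. SAA2 was at 5.22, 5.86, 7.65 and 8.36 FPKM in ancestral cells on soft ECM and at 0.711, 0.578, 1.86 and 0.741 FPKM in soft-selected cells. On stiff ECM the SAA2 values were 10.6, 8.23, 6.53 and 4.98 FPKM in ancestral cells and 0.925, 1.69, 1.20 and 0.815 FPKM in stiff-selected cells. No selected library reached the lowest ancestral one, and the selected means were 0.144 (soft ECM) and 0.152 (stiff ECM) times the ancestral means. The log2 differences were -2.0005 (95% interval -2.44 to -1.56) for soft-selected and -1.97 (95% interval -2.40 to -1.53) for stiff-selected cells. The depth behind these values was small, with 10 to 25 reads in each selected library against 91 to 196 in each ancestral one. Of the distinct runs of 150 bases in the SAA2 protein-coding transcripts of GENCODE, 5.29% also occurred in SAA1 transcripts, and of runs of 50 bases 17.8% did. Of those of SAA1, 8.94% and 34.2% also occurred in SAA2 transcripts. Part of the reads of either gene could therefore have been counted to the other. The ratio of SAA1 to SAA2 was 5.17 ± 1.06 and 5.23 ± 1.52 in ancestral cells on soft and stiff ECM, and 7.43 ± 3.90 and 7.61 ± 2.33 in soft-selected and stiff-selected cells, with overlapping ranges. The hepatocyte markers (ALB, APOA1, TTR and AHSG) summed to at most 0.475 FPKM in any library.

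**Figure D3:**
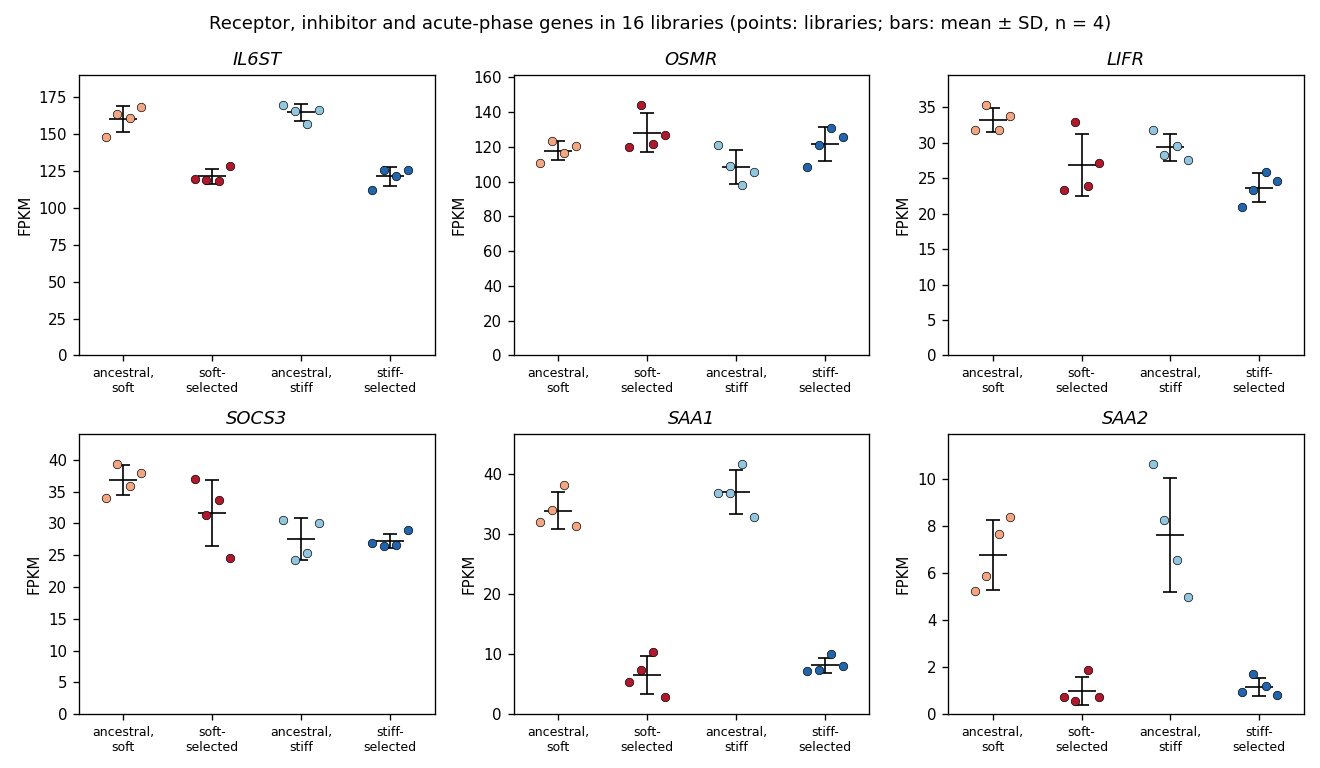
Each panel plots the FPKM (y axis, from 0) of IL6ST, OSMR, LIFR, SOCS3, SAA1 or SAA2 in the 4 groups (x axis), with a point per library and a bar for the mean ± SD (n = 4). For IL6ST, SAA1 and SAA2 all 8 selected libraries lie below all 8 ancestral libraries.

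Set beside all genes tested, 1 of the 10 genes was called higher and 4 lower in soft-selected than in ancestral cells on soft ECM, where 21.5% and 15.4% of all genes were called. In stiff-selected against ancestral cells on stiff ECM 2 were called higher and 4 lower, with 18.4% and 10.8% of all genes. Soft-selected against stiff-selected cells gave 1 higher and 2 lower beside 3.85% and 2.59%, and ancestral cells on soft against stiff ECM gave 1 and 1 beside 7.54% and 3.87%. The median log2 fold change of the 10 genes was -0.08, -0.19, 0.02 and -0.08 in these comparisons, and that of all genes 0.04, 0.05, 0.02 and 0.03. These counts include the genes chosen with results in view and are a description. Comparisons that share a group are not independent of each other.

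The difference between the selection effect on soft and on stiff ECM was tested directly as an interaction. None of the 10 genes passed (0 called by limma, 1 at an unadjusted p under 0.05), and among all genes 0% were called higher and 0% lower. By limma 1627 of the 12604 genes had an unadjusted p under 0.05, and voom on recovered reads also called 0. The largest values were 0.65 for IL6 (95% interval 0.23 to 1.06, limma adjusted p = 0.178), -0.57 for IL24 (95% interval -1.37 to 0.23) and -0.54 for IL11 (95% interval -1.11 to 0.04).

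**Figure D4:**
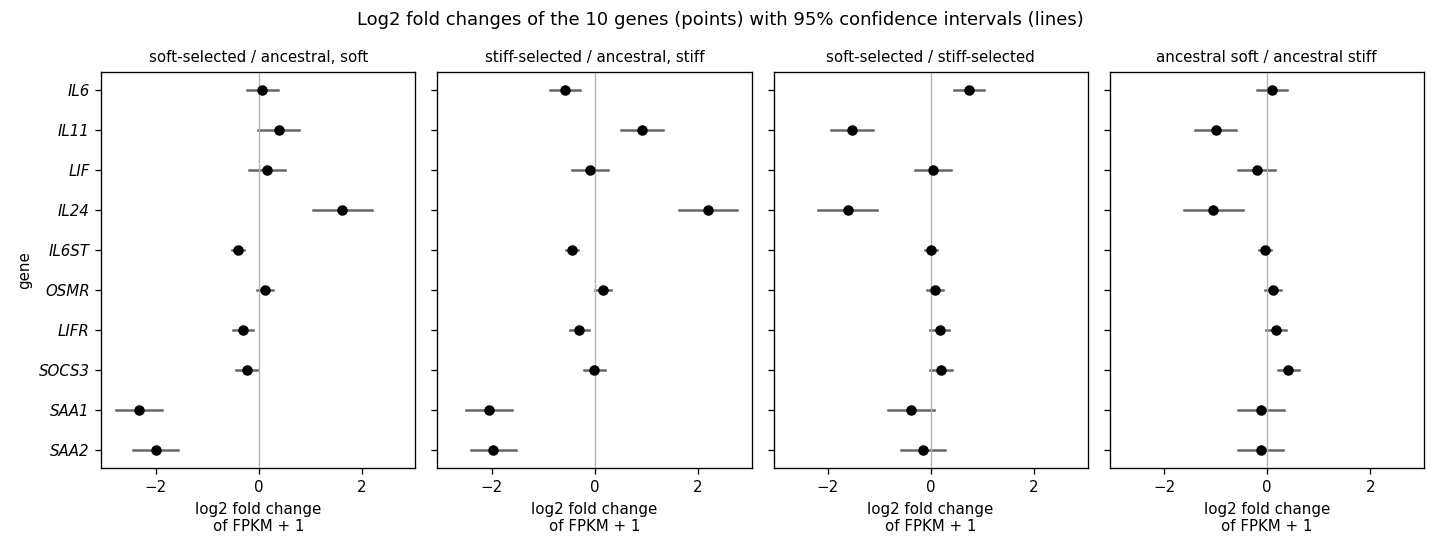
Points give the log2 fold change of FPKM + 1 (x axis) of each of the 10 genes (y axis) in 4 comparisons (panels), and lines the 95% confidence interval from the fit of all 16 libraries. SAA1 and SAA2 lie near -2 in both comparisons of selected with ancestral cells, and IL11 and IL24 lie below 0 in both comparisons of soft with stiff ECM.

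The other genes of the pathway were taken from 6 lists, 89 genes in all, of which 61 had at least 1 FPKM in at least 4 libraries and were tested. Soft-selected cells had 10 higher and 10 lower than the ancestral group on that gel. Stiff-selected cells had 8 higher and 5 lower than theirs, which changed to 4 and 4 without ancestral stiff replicate 2. Among all genes 2313 higher and 1356 lower became 1806 and 1069 in that fit. Soft-selected against stiff-selected cells gave 4 higher and 1 lower, and the 5 calls became 2 without stiff-selected replicate 1, 3 without soft-selected replicate 3, 11 without soft-selected replicate 2 or stiff-selected replicate 4, and 13 without soft-selected replicate 4. Of all genes 485 were higher and 326 lower. These became 189 and 144, 219 and 146, 652 and 482, 612 and 367, and 494 and 307 in the same fits, in that order. Ancestral cells on soft against stiff ECM gave 15 higher and 1 lower, and the 16 calls became 6, 10 and 10 without soft replicates 2, 3 and 4 and 8 and 9 without stiff replicates 2 and 3. Calls over all genes fell in these fits as well. There 950 higher and 488 lower became 422 and 193, 517 and 265, and 556 and 244 without soft replicates 2, 3 and 4. Without stiff replicates 2 and 3 they became 408 and 166, and 494 and 182. These counts stand beside the shares of all genes given above, with 21.5% called higher and 15.4% lower in soft-selected cells, 18.4% and 10.8% in stiff-selected cells, 3.85% and 2.59% between the selected populations and 7.54% and 3.87% in ancestral cells on soft against stiff ECM. The interaction gave 0 by limma, with 8 of the 61 at an unadjusted p under 0.05.

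Most of the other ligands were near or under detection in the cells, whereas 6 of the 10 other receptors were tested. The ligand gene CLCF1 lay between 24.8 and 36.5 FPKM and the receptor gene IL10RB between 30.7 and 41.9 FPKM. Both are named here because of their values. Of the 13 other ligands 3 were tested, and CNTF, a neurotrophic member, was higher in both selected populations by 0.51 (SE 0.11, adjusted p = 9.9e-04 by limma) on soft and 0.53 (SE 0.11, adjusted p = 9.9e-04 by limma) on stiff ECM. OSM, the ligand of OSMR, did not exceed 0.105 FPKM in any library. Among the 10 other receptors, IL6R, the chain that binds IL-6 itself, lay between 0.098 and 1.02 FPKM and was not tested. IL11RA, which binds IL-11, was higher in ancestral cells on soft (3.33 ± 0.323 FPKM) than on stiff ECM (1.80 ± 0.239), by a log2 fold change of 0.63 (SE 0.13, adjusted p = 0.0025 by limma), the opposite direction to IL11. IL31RA was higher in soft-selected (0.38 with SE 0.08, adjusted p = 5.6e-04 by limma) and stiff-selected cells (0.27 with SE 0.08, adjusted p = 0.00895 by limma). Of the IL24 receptor chains, IL20RA, added here for its role after its values were seen, did not exceed 0.123 FPKM. IL20RB was at 1.18 ± 0.101 FPKM in stiff-selected cells and 0.659 ± 0.0553 FPKM in ancestral cells on stiff ECM (0.39 with SE 0.10). Only in stiff-selected cells did the IL20RB mean exceed the filter level of 1 FPKM. It may have been tested only because it was high there, so no p-value is given. IL22RA1, the other chain that pairs with IL20RB, likewise added after its values were seen, was at 1.73 ± 0.174 FPKM in ancestral and 2.63 ± 0.650 FPKM in soft-selected cells on soft ECM (0.40 with SE 0.13, adjusted p = 0.0145 by limma).

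The JAK kinases and STATs carry the signal from the receptors. Of 9 tested, none was called in soft-selected against ancestral cells (0 by limma), beside 21.5% higher and 15.4% lower of all genes. An unadjusted limma p under 0.05 was reached by 5 of the 9, and by 7240 of the 12604 genes. In stiff-selected cells 2 were called higher, beside 18.4% of all genes. In ancestral cells 3 were called higher on soft than on stiff ECM, beside 7.54% of all genes. STAT3 stayed between 80.2 and 90.9 FPKM in all 16 libraries, with log2 fold changes of 0.04 in both selected populations. JAK1 gave -0.18 (limma adjusted p = 0.0114) in soft-selected and -0.15 (limma adjusted p = 0.0286) in stiff-selected cells, short of the threshold. STAT2 and STAT6 rose in stiff-selected cells by 0.29 (SE 0.08, adjusted p = 0.00749 by limma) and 0.31 (SE 0.06, adjusted p = 5.8e-04 by limma), and were higher in ancestral cells on soft than on stiff ECM by 0.52 and 0.32.

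The inhibitors include the SOCS and PIAS proteins and tyrosine phosphatases. In soft-selected cells 6 of the 15 tested were higher and 3 lower than in ancestral cells, beside 21.5% and 15.4% of all genes. In stiff-selected cells 2 were higher and 2 lower, beside 18.4% and 10.8% of all genes. SOCS1, which blocks JAK kinases, rose from 6.94 ± 0.570 to 15.7 ± 2.16 FPKM in soft-selected cells (log2 fold change 1.06 with SE 0.12, adjusted p = 1.7e-06 by limma) and also rose in stiff-selected cells (0.56 with SE 0.12, adjusted p = 0.00116 by limma). SOCS6 fell to 16.6 ± 3.10 FPKM from 31.4 ± 0.802 in soft-selected cells (-0.90 with SE 0.10, adjusted p = 1.8e-06 by limma) and to 18.6 ± 1.41 from 29.4 ± 2.39 in stiff-selected cells (-0.63 with SE 0.10, adjusted p = 9.5e-05 by limma). PIAS3, an inhibitor of STAT3, rose by 0.43 (SE 0.08, adjusted p = 2.2e-04 by limma) in soft-selected and by 0.39 (SE 0.08, adjusted p = 6.4e-04 by limma) in stiff-selected cells. The phosphatase PTPN6 was higher on soft than on stiff ECM in ancestral (0.40 with SE 0.09, adjusted p = 0.00382 by limma) and in selected cells (0.43 with SE 0.09, adjusted p = 0.00355 by limma).

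Of the known target genes of STAT3, more were called lower than higher in selected cells, and more higher than lower in ancestral cells on soft against stiff ECM. All 20 were tested. In soft-selected cells 1 was higher and 6 lower, beside 21.5% and 15.4% of all genes. In stiff-selected cells 0 were higher and 3 lower, beside 18.4% and 10.8%. Ancestral cells on soft against stiff ECM gave 8 higher and 0 lower, beside 7.54% and 3.87%. Soft-selected against stiff-selected cells gave 2 higher and 1 lower, beside 3.85% and 2.59%. These counts are a description. The one higher in soft-selected cells, named after its values were seen, was HIF1A, a regulator of the response to low oxygen (0.39 with SE 0.10, adjusted p = 0.00327 by limma). In these comparisons, in the same order, the median of the 20 log2 fold changes was -0.19, -0.21, 0.28 and 0.29. Over all genes tested it was 0.04, 0.05, 0.03 and 0.02. CEBPD, a transcription factor gene of the acute phase, fell by 0.74 in soft-selected (SE 0.11, adjusted p = 2.2e-05 by limma) and by 0.58 in stiff-selected cells (SE 0.11, adjusted p = 3.4e-04 by limma) on the log2 scale. CCND1, encoding cyclin D1, fell by 0.40 in soft-selected cells (SE 0.07, adjusted p = 1.9e-04 by limma) and by 0.29 in stiff-selected cells (SE 0.07, adjusted p = 0.00338 by limma), and VEGFA, an angiogenic factor, by 0.86 in stiff-selected cells (SE 0.12, adjusted p = 2.9e-05 by limma). JUNB and BCL3 were higher in ancestral cells on soft than on stiff ECM by 0.94 (SE 0.13, adjusted p = 2.8e-04 by limma) and 0.50 (SE 0.08, adjusted p = 8.0e-04 by limma). Between selected populations JUNB (0.69 with SE 0.13, adjusted p = 0.00199 by limma) and TIMP1 (0.68 with SE 0.12, adjusted p = 0.00147 by limma) were higher in soft-selected cells. In the same comparison CCND1 was lower (-0.37 with SE 0.07, adjusted p = 0.00276 by limma).

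Other acute-phase genes were few in these cells. Only 8 of 21 were tested, and CRP, FGA, FGB and SAA4, named here because of their values, were listed at 0 in all libraries. Of the 8, 1 was higher and 1 lower in soft-selected cells, beside 21.5% and 15.4% of all genes. None was called in stiff-selected cells (0 by limma), beside 18.4% and 10.8%. An unadjusted limma p under 0.05 was reached by 3 of the 8 there, and by 6514 of the 12604 genes. Ancestral cells on soft against stiff ECM gave 2 higher and 1 lower, beside 7.54% and 3.87%. Soft-selected against stiff-selected cells gave 1 higher and 0 lower, beside 3.85% and 2.59%. The median log2 fold change of the 8 was -0.39 in soft-selected and -0.45 in stiff-selected cells, against 0.04 and 0.05 over all genes tested. ITIH4 fell from 21.7 ± 2.37 to 13.0 ± 2.67 FPKM in soft-selected cells (-0.71 with SE 0.19, adjusted p = 0.00487 by limma). In stiff-selected cells ITIH4 was at 12.01 ± 3.72 FPKM against 9.04 ± 2.52 in ancestral cells (0.35 with SE 0.19, adjusted p = 0.141 by limma), and the difference between the 2 effects was -1.07 (SE 0.27, adjusted p = 0.105 by limma). HAMP, encoding the iron regulator hepcidin, was the 1 counted as higher in soft-selected cells. It was at 0.975 ± 0.437 FPKM there and 0.0604 ± 0.0410 FPKM in ancestral cells on soft ECM (0.87 with SE 0.17). HAMP passed the filter only through selected libraries, where it was high, so no p-value is given. It did not exceed 1.29 FPKM in any library. CFB, a complement gene, was higher on soft than on stiff ECM in ancestral (0.87 with SE 0.19, adjusted p = 0.00345 by limma) and in selected cells (0.97 with SE 0.19, adjusted p = 0.00271 by limma), and ITIH4 was higher on soft ECM in ancestral cells by 1.20 (SE 0.19, adjusted p = 5.9e-04 by limma).

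**Figure D5:**
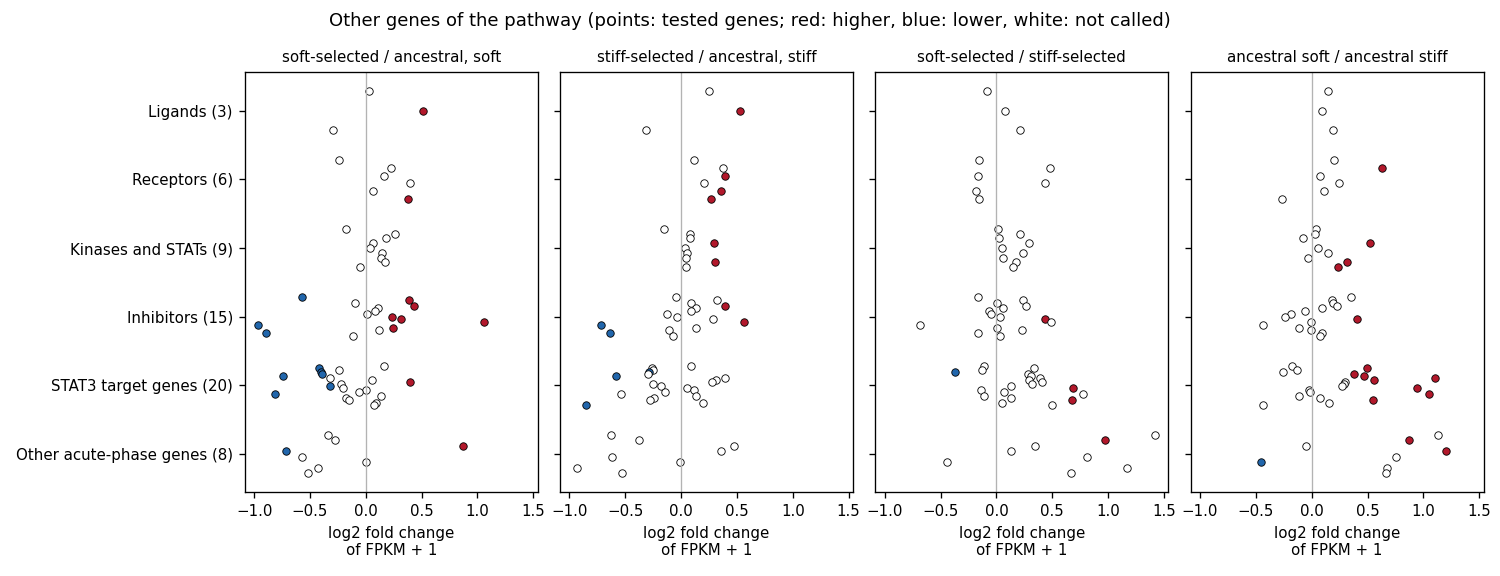
Each point is a tested gene of 1 of 6 lists (y axis, number tested in brackets), at its log2 fold change of FPKM + 1 (x axis) in 4 comparisons (panels); red and blue mark genes called higher and lower at a limma adjusted p under 0.01, white those not called. In the last panel, ancestral cells on soft against stiff ECM, 8 of the 20 STAT3 target genes are red and none is blue.

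Markers of other cells were examined because fibroblasts, blood cells and hepatocytes also make these products. Of 5 fibroblast markers 4 were under 1 FPKM in every library, and the summed level ran from 4.43 to 4.66 FPKM in ancestral cells on soft ECM, 2.29 to 3.41 in soft-selected cells, 2.85 to 3.38 in ancestral cells on stiff ECM and 1.41 to 2.73 in stiff-selected cells. Of 5 blood cell markers PTPRC, ITGAM and CD3E stayed under 0.1 FPKM. The sum, nearly all of it CD68, ran from 92.9 to 107 and from 62.6 to 87.0 FPKM in ancestral cells on soft and stiff ECM, and from 122 to 153 and from 94.8 to 111 FPKM in soft-selected and stiff-selected cells. CD14 moved with selection as SAA1 did, from 3.53 ± 0.512 to 0.823 ± 0.361 FPKM on soft ECM and from 2.54 ± 0.529 to 1.25 ± 0.482 FPKM on stiff ECM. The part of such cells in the results was not tested.

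Genes with the most similar pattern over the 16 libraries were found by the root mean square difference in log2(FPKM + 1) after each gene was centred and divided by its SD. They were NUP58 for IL24 (0.239 SD), SOAT1 for IL11 (0.279 SD), SMARCA2 for IL6 (0.465 SD), USP9X for IL6ST (0.195 SD), LITAF for SAA1 (0.237 SD) and MGAT4A for SAA2 (0.246 SD). The nearest gene was farther for LIF (PLAGL2, 0.450 SD) and OSMR (NBR1, 0.442 SD) than for LIFR (CCNDBP1, 0.317 SD) and SOCS3 (PIP5K1C, 0.344 SD), and the median over all genes lay between 1.30 and 1.48 SD for each of the 10.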

How the data were processed

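Total RNA of 16 MDA-MB-231 libraries was sequenced after ribodepletion. According to the submitters' processing notes the reads were aligned with STAR to hg19. Of tool versions, the counting tool and the gene models, none is given in the sources used here. The authors deposited FPKM values per library for 19468 genes, with no further scaling between libraries. Column names of the stiff libraries say 3 kPa where the labels say 308 kPa, and groups were taken from the labels. FPKM steps gave back whole reads for 100% of the genes (tolerance 0.001), so the depth of each library was known, and 84.2% of the gene lengths they imply were multiples of 3, as coding lengths are.

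Genes with at least 1 FPKM in at least 4 libraries (12604) were fitted as log2(FPKM + 1) with limma 3.58.1 in R 4.3.3, with a trended prior and 1 mean per group over all 16 libraries. The pseudocount understates changes of low genes. P-values were Benjamini-Hochberg adjusted over all genes and calls made at an adjusted p under 0.01. The 5 comparisons were the 4 pairs of groups described and the interaction. The 10 genes, the pathway lists and the markers were chosen with earlier results of these data known. Named pathway genes were the 2 called genes of smallest p per list and comparison, plus IL6R, IL11RA, OSM, JAK1 and STAT3; 1 further gene of the rule is not reported here. On simulated data of these 16 libraries' design, the fit was tested before use. Alternatives changed the pseudocount, filter, scaling, prior, libraries fitted, threshold and test, and each replicate was left out in turn; voom with median-of-ratios library sizes was added after seeing the data. Promoter sequences came from RefSeq (GRCh38.p14), whose coordinates were not mixed with hg19. Replicate numbers came from the labels. Figures were drawn with matplotlib 3.10.9.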

Additional observations from a re-analysis of the deposited data

Results flagged for a closer look

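Among the 40 sets of 4 libraries (10 genes in 4 groups), 3 held a library whose gap to the nearest other was most of the range of its group, where chance gives about 1 in 20. All 3 were in soft-selected cells. IL24 in replicate 4 was at 21.9 FPKM, against 7.25 to 9.01 in the other libraries. IL6ST in replicate 4 was at 128 FPKM, against 118 to 119.8 in the others. SAA2 in replicate 3 was at 1.86 FPKM, against 0.578 to 0.741 in the others.

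In the same soft-selected replicate 4, IL6 (15.4 FPKM), LIF (18.4 FPKM), SAA1 (2.83 FPKM) and SOCS3 (24.6 FPKM) were each the lowest of the 4 soft-selected libraries, which was seen after their values were known and was not tested.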

How the results depend on the processing

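The IL6ST calls in both selected populations held under all 11 alternatives and without any 1 library. As a description, the log2 differences of the genes chosen with results in view ranged over the 11 alternatives from 1.56 to 1.93 and 2.09 to 2.34 for IL24 in soft-selected and stiff-selected against ancestral cells, from -2.55 to -2.33 and -2.24 to -2.06 for SAA1, and from -2.95 to -2.0005 and -2.74 to -1.97 for SAA2. In ancestral cells on soft against stiff ECM they ranged from -1.26 to -1.001 for IL11 and from -1.35 to -1.04 for IL24. The calls of the 10 genes between ancestral cells on soft and stiff ECM (2) became 1 with no filter and 1 with the replicate block, and ranged from 1 to 3 without 1 library. Between the selected populations (3) they became 1 when only these groups were fitted, and ranged from 2 to 3. Calls over all genes fell as well in that fit, from 485 higher and 326 lower to 79 and 47. The ranges without 1 library were 4 to 5 in soft-selected and 5 to 6 in stiff-selected against ancestral cells, and 0 to 0 for the interaction.

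For the pathway lists, ancestral cells on soft against stiff ECM (16 calls) gave 10 with no filter and 28 at an adjusted p under 0.05, and 6 to 16 without 1 library. Over all genes 696 were higher and 391 lower of 17735 with no filter. At an adjusted p under 0.05 these were 1998 and 1188 of 12604. Soft-selected against stiff-selected cells (5) gave 1 when only these groups were fitted, 9 with the replicate block and 24 at an adjusted p under 0.05, and 2 to 13 without 1 library. Stiff-selected against ancestral cells (13) gave 29 at an adjusted p under 0.05, where 3499 of the 12604 genes were higher and 2111 lower. Without 1 library they gave 8 to 14, and soft-selected against ancestral cells (20) 15 to 21. The interaction gave 1 at an adjusted p under 0.05, where 12 of the 12604 genes were higher and 29 lower, and 0 to 1 without 1 library. Except where fewer samples were fitted or the threshold changed, the cause was not tested.

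Log2 fold changes near 0 changed sign. SOCS3 in stiff-selected against ancestral cells was 0.026 as TPM, and -0.066 to 0.042 without 1 library. The LIFR interaction was 0.00094 as TPM and 0.012 by voom with median-of-ratios library sizes, and -0.11 to 0.053 without 1 library. IL6ST between the selected populations was -0.022 under median scaling and -0.014 by voom with median-of-ratios library sizes, and -0.038 to 0.018 without 1 library. The SAA2 interaction was 0.0021 under quantile normalization and -0.23 to 0.13 without 1 library. Without 1 library, IL6 in soft-selected cells ranged from -0.041 to 0.21, LIF from -0.064 to 0.22 between the selected populations and from -0.20 to 0.043 in stiff-selected cells, SAA2 from -0.28 to 0.039 in ancestral cells on soft against stiff ECM, and the interaction from -0.10 to 0.00033 for OSMR and from -0.51 to 0.018 for SAA1.

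Scaling moved the split of all calls: in stiff-selected against ancestral cells 2313 higher and 1356 lower became 1836 and 1863 by voom with median-of-ratios library sizes, while the median shift stayed under 0.1 on the log2 scale. Same-numbered replicates deviated together little or not at all (correlations from -0.19 to 0.31 over 24 pairs, 7 over 0.1, and 11 of 48 pairs of a library and another group matched best at the same number). Such correlations cannot show whether the replicate block pairs libraries by origin, which the labels do not give. The block cost SOCS3 its call in ancestral cells (limma adjusted p = 0.0113). Depth limits SAA2 most, at 10 to 25 reads per selected library.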
